A study of Mus musculus with 5 samples.

Results

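The 38 autosomal collagen genes outside the type IV group were examined for binding of NKX2-1, the homeodomain transcription factor of lung epithelium. They were taken from the RefSeq annotation of mm10 as every autosomal protein-coding gene whose symbol is Col, a number, a and a number, without Col4a1, Col4a2, Col4a3 and Col4a4, and they are 38 of 20661 autosomal protein-coding genes. Of these, 11 encode fibrillar collagens and 27 other collagens. Chromatin immunoprecipitation followed by sequencing (ChIP-seq) was done on whole lungs of wildtype mice at postnatal day 10, without treatment as far as the labels tell, with 4 antibodies against NKX2-1 (Abcam133737, Millipore07-601, Abcam76013 and Abcam133638), 1 library each, and 1 input library, the common control of all 4. Sonicated chromatin of several tubes was pooled, and how many animals it came from is not given in the sources used here. Each library held 43031331 to 46547989 tags after filtering, against 10653749 in the input. With 1 library per antibody no difference has a replicate error, so all results are described by counts and values of the 4 libraries, without p-values. By its title the study concerns alveolar type 1 cells, but whole lung mixes cell types, so which cell type gave a signal cannot be told.

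Collagens are secreted or membrane-bound proteins with a triple helix whose chains repeat glycine at regular steps. Fibrillar collagens assemble into the banded fibres that carry tension, while the others form networks, beaded filaments, anchoring structures or membrane anchors, or coat the surface of the fibrils. In the lung the fibrillar types I and III are made mainly by fibroblasts of the septa, airways and vessels, whereas epithelial and endothelial cells lay down the basement membrane. NKX2-1 is made in the lung epithelium and not in fibroblasts.

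A peak was assigned to a gene when its summit, the base of highest signal, lay inside the gene or within 10 kb of it. Peaks that overlapped between lists were joined to a region, which was then scored by how many antibodies had a peak in it. A region with peaks of all 4 antibodies is called a 4-antibody region. Its fold is the authors' fold enrichment of the tag pileup at the summit over the local background, and folds are given in the order Abcam133737, Millipore07-601, Abcam76013 and Abcam133638. Cell type markers, chosen with earlier results of these data known, serve as a description only. A 4-antibody region stood near 6 of 6 alveolar epithelial markers (Sftpc, Sftpb, Sftpa1, Ager, Aqp5 and Cldn18), against 60.4% of all genes. Among 6 mesenchymal markers (Pdgfra, Tcf21, Tbx4, Fgf10, Acta2 and Dcn) 1, Acta2, had one.

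Collagen genes had a 4-antibody region about as often as all genes, but fewer such regions for their length. Of the 38 genes, 23 (60.5%) had at least 1 such region, against 60.4% of all genes. A peak of at least 1 antibody stood near 32 (84.2%), against 74.1% of all genes. With single antibodies, a peak stood near 24 genes for Abcam133737 against 65.3% of all genes, near 30 for Millipore07-601 against 70.6%, near 28 for Abcam76013 against 65.1% and near 29 for Abcam133638 against 71.8%. These counts are 63.2%, 78.9%, 73.7% and 76.3% of the collagen genes. The genes without any peak were Col3a1, Col6a4, Col9a2, Col10a1, Col14a1 and Col24a1.

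**Figure D1:**
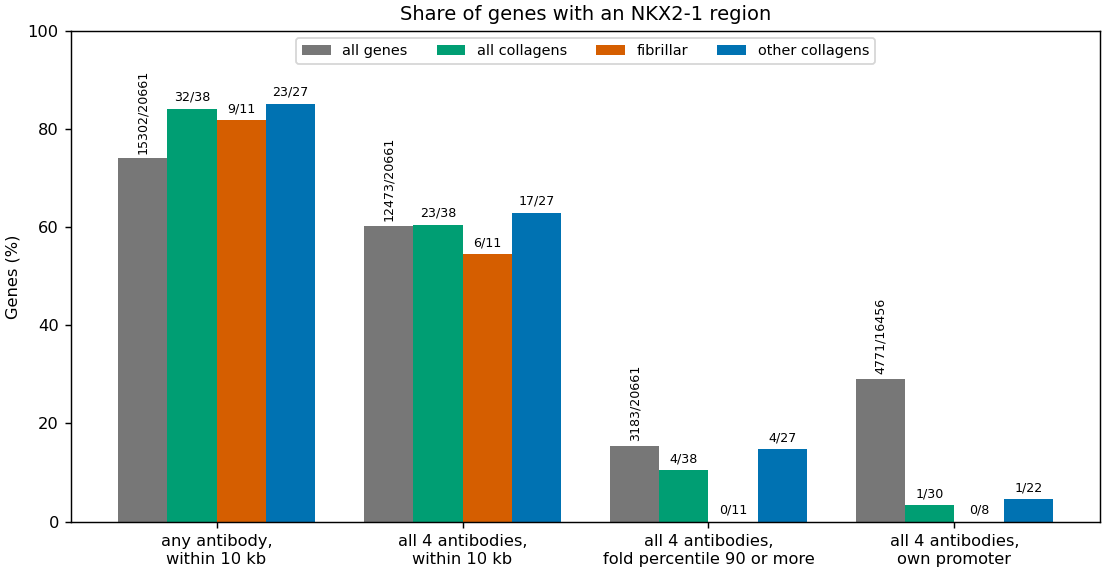
Percentage of genes with an NKX2-1 region, for all autosomal protein-coding genes, all 38 collagen genes, the fibrillar and the other collagens, by 4 measures, with the number of genes over each bar. Collagens stand at 60.5% against 60.4% of all genes for a 4-antibody region within 10 kb, and at 1 of 30 against 29% for a 4-antibody region in the promoter.

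Collagen genes are long, with a median of 106 kb against 17.5 kb for all genes, and long genes leave more room for a region. Among genes of 100 kb or more, 13 of 20 collagens (65.0%) had a 4-antibody region, against 77.5% of all genes of that length. The shares were 6 of 9 (66.7%) against 72.4% between 30 and 100 kb, and 4 of 9 (44.4%) against 53.1% under 30 kb. In each length class the collagens thus stood below all genes of the class, by margins that rest on a few genes. The mean number of 4-antibody regions per gene was 1.95 for collagens against 3.86 for all genes of 100 kb or more, 1.22 against 1.98 between 30 and 100 kb, and 0.556 against 1.09 under 30 kb. Merged windows of the collagen genes held 1.07 such regions per 100 kb, and those of all genes 2.03 per 100 kb. Among all genes, however, density falls with gene length. Within length classes, regions and windows were summed over genes without merging, so a region near several genes counts for each. This density was 0.936 against 1.40 at 100 kb or more, 1.79 against 2.66 between 30 and 100 kb, and 1.34 against 3.53 under 30 kb.

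**Figure D2:**
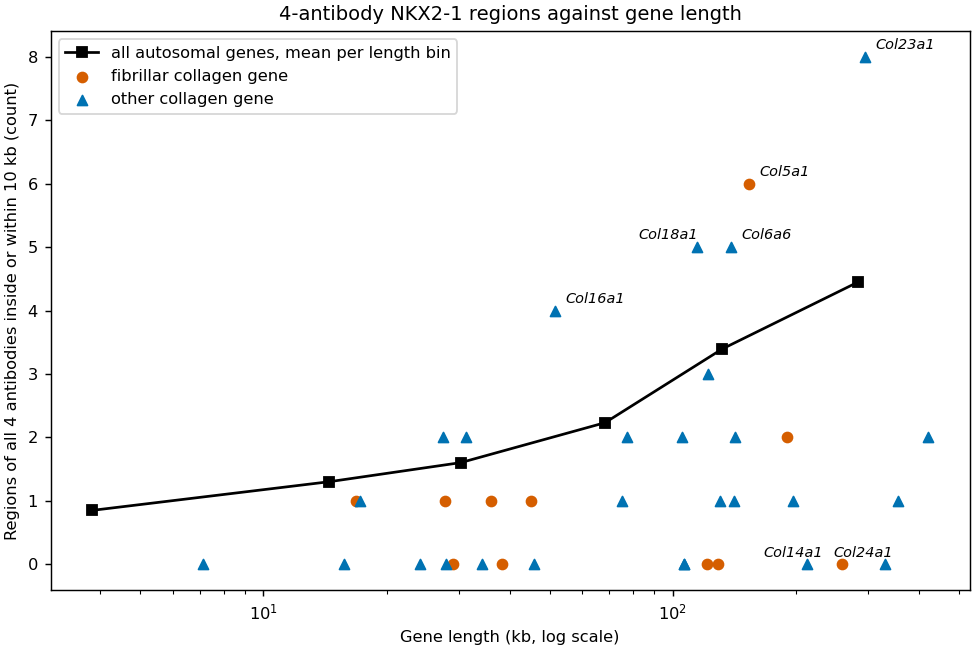
Number of 4-antibody regions inside or within 10 kb of each collagen gene against gene length on a log axis, with the mean over all autosomal genes in length bins up to 500 kb as squares joined by a line. Col23a1, Col5a1, Col18a1, Col6a6 and Col16a1, with 4 to 8 regions each, stand clear above the line.

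The regions were spread unevenly over the collagen genes, which was not compared with their spread over all genes. The 38 windows held 135 distinct regions, of which 55 (40.7%) had all 4 antibodies, 18 had 3, 21 had 2 and 41 had 1, while 46.3% of the regions near all genes had all 4. Col23a1 with 8, Col5a1 with 6, Col18a1 and Col6a6 with 5 each and Col16a1 with 4 together held 28 of the 55 (50.9%). Another 10 genes held 1 each. Of the 55 regions, 43 lay inside the collagen gene itself, 6 inside another gene and 6 outside genes. The mean fold of a 4-antibody region, averaged over its 4 libraries, ranged from 3.48 to 24.1 with a median of 6.28, against 7.14 for all 4-antibody regions of the genome, and 13 of the 55 (23.6%) reached 10, against 26.6% of all.

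**Figure D3:**
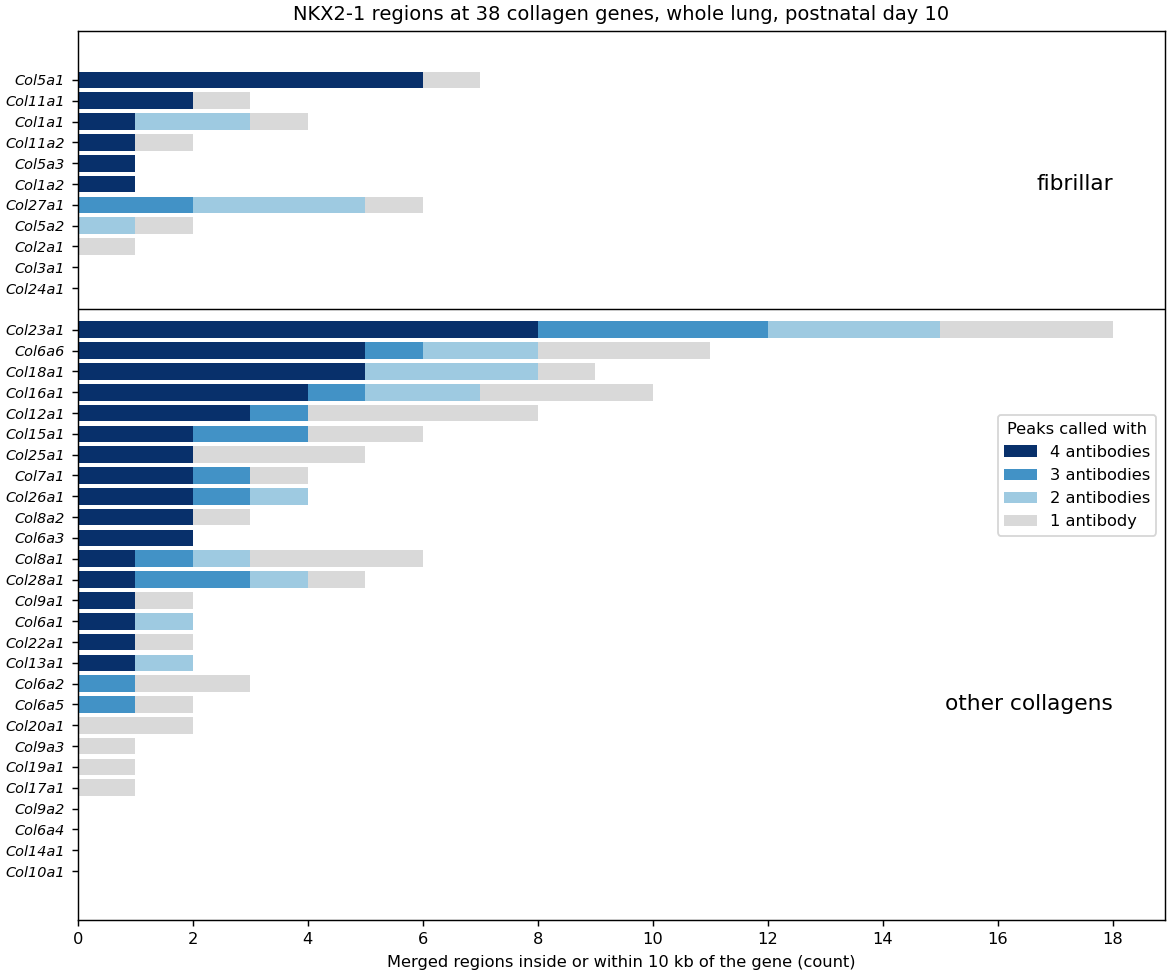
Merged regions inside or within 10 kb of each of the 38 collagen genes, stacked by the number of antibodies that gave a peak. Fibrillar genes are above the line and other collagens below it. Col23a1 has 18 regions, 8 of them with all 4 antibodies, and 6 genes have none.

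Fibrillar collagens had a 4-antibody region in 6 of 11 genes (54.5%, exact Clopper-Pearson 95% interval 23.4 to 83.3) and the other collagens in 17 of 27 (63.0%, interval 42.4 to 80.6). The intervals overlap widely and cover counting error only, and genes are not independent draws. Their windows held 12 regions at 0.948 per 100 kb and 43 regions at 1.11 per 100 kb. Of the 12 fibrillar regions 6 came from Col5a1, without which the density was 0.549 per 100 kb over 10 genes, and the density of the others without Col23a1 was 0.983 over 26 genes. Taking the best region of each gene that had one, the median of the mean folds was 6.93 for fibrillar and 7.34 for other collagens. It was 9.02 for all genes. The order of the fibrillar and the other median reversed with other windows and with a stricter q-value limit.

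To describe height, each fold was turned into its percentile within its list, and the 4 percentiles of a region were averaged. A region with a mean percentile of at least 90 stood near 4 of the 27 other collagens (14.8%), near 0 of the 11 fibrillar genes and near 15.4% of all genes, so the other collagens stood close to all genes. The highest fibrillar region, in Col5a1, was just below that limit at 89.8. Near Col7a1 and Col16a1 the regions past the limit lay in a neighbouring gene. Among the 10000 peaks of highest fold of each list, 2 of 11 fibrillar genes (18.2%) and 5 of 27 other collagens (18.5%) had a 4-antibody region. All genes stood at 23.1% there. The contrast between fibrillar and other collagens at the limit of 90 was thus absent in that setting, and both were below all genes.

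**Figure D4:**
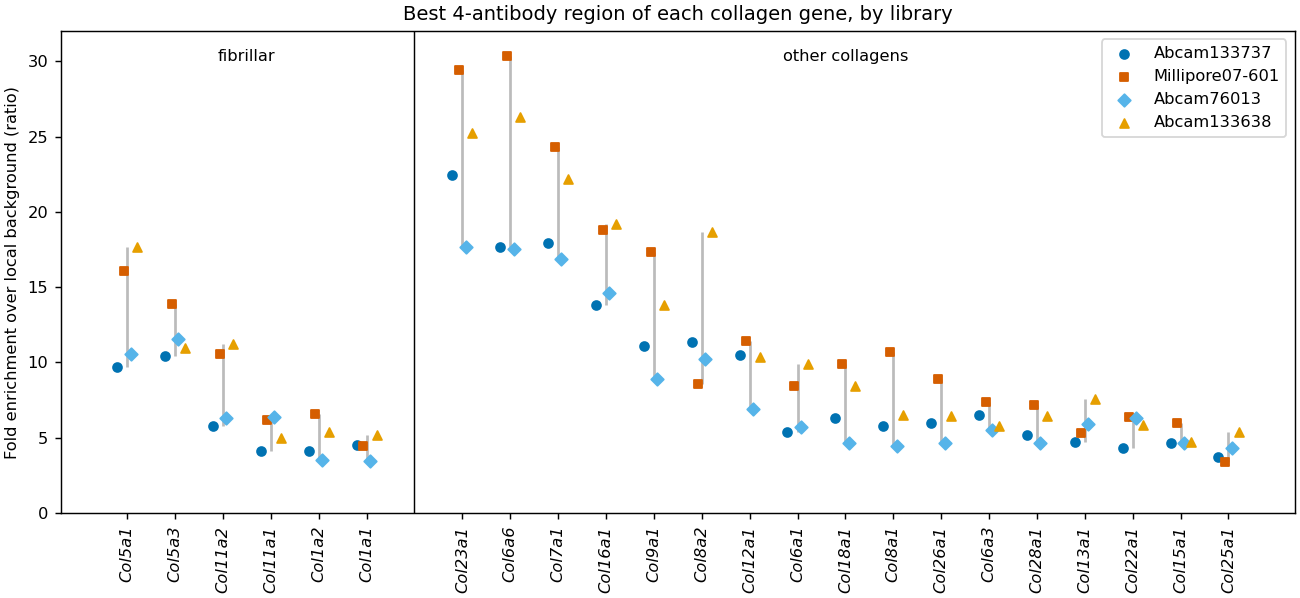
Fold enrichment in each of the 4 libraries at the best 4-antibody region of the 23 collagen genes that have one, with the best region chosen by the mean percentile of fold; grey lines join the lowest and the highest library. The best regions of Col23a1, Col6a6 and Col7a1 lie above 16 in every library, and those of the fibrillar genes lie at or below 17.7.

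Among fibrillar collagens, Col5a1, whose type V chain helps to start and to limit the width of type I fibrils, carried the most binding. All 6 of its 4-antibody regions lay inside the gene, and 3 of them fell 44.8 to 53.2 kb downstream of the transcription start. The best (mm10, chromosome 2, 27930992 to 27931464) had folds of 9.67, 16.1, 10.6 and 17.7, with Millipore07-601 and Abcam133638 above the other libraries. A region 2.05 kb from the distal end of the gene (28037227 to 28037942) had folds of 9.67, 17.6, 8.53 and 14.4. The mean folds of the other 4 regions were 5.45 to 7.13, so the gene held 2 regions above 10 and a row of weaker ones.

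Col5a3, which encodes another type V chain, had a single region, inside the gene and 10.6 kb from its start (chromosome 9, 20804270 to 20804786). Its folds of 10.4, 13.9, 11.6 and 11.0 were nearly level across the libraries. Col5a2, the third gene of this type, had 2 weak regions inside it, 1 with Millipore07-601 and Abcam133638 at a mean fold of 4.79 and 1 with Abcam76013 at 3.65, and its nearest 4-antibody region was 292 kb away. The 3 type V genes therefore ranged from 6 regions of all 4 antibodies to 0.

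The genes of the abundant fibre-forming types I and III had weak regions or none. In Col1a1, which encodes a chain of type I collagen, a 4-antibody region lay 1.01 kb from a gene end (chromosome 11, 94937089 to 94937402) with folds of 4.53, 4.44, 3.45 and 5.17. Near Col1a2, which encodes the partner chain, one lay outside the gene at 4.37 kb (chromosome 6, 4545722 to 4546021), on the far side from the start, with folds of 4.10, 6.55, 3.54 and 5.38. Both are below the median of 4-antibody regions in every library. Around Col3a1, the type III gene, no list had a peak within 82.4 kb, and the nearest 4-antibody region was 446 kb away.

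The remaining fibrillar genes belong mainly to cartilage or are minor types. Col11a1, a type XI gene, had 3 regions deep inside it, 2 of them with all 4 antibodies, and the better one (chromosome 3, 114187435 to 114187683) had folds of 4.10, 6.15, 6.34 and 5.00. The 4-antibody region near Col11a2 lay 7.29 kb outside that gene, at the start of Slc39a7, a zinc transporter gene, and Rxrb, a nuclear receptor gene (chromosome 17, 34031463 to 34032214). It had folds of 5.76, 10.6, 6.29 and 11.2 and is nearer those genes than the collagen gene. Col27a1 had 6 regions, of which none had all 4 antibodies and 2 had 3, and no peak there exceeded a fold of 5.39. Col2a1, the main cartilage collagen gene, had 1 peak of Abcam133638 at 3.88, and Col24a1, which is 260 kb long, had none.

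Among the other collagens, Col23a1 stood first. It encodes a collagen anchored in the cell membrane, and 18 regions were assigned to it, 8 of them with all 4 antibodies. The strongest lay 102 and 107 kb inside the gene. The first (chromosome 11, 51391464 to 51392004) had folds of 22.4, 29.4, 17.7 and 25.2, and the second (51396225 to 51396923) had 18.3, 32.4, 18.3 and 27.6. All 8 values are far above the library medians of 5.28 to 5.92 over all peaks. The other 6 regions of all 4 antibodies had mean folds of 4.22 to 5.92, and 1 of these lay inside Phykpl, the next gene, 0.034 kb from one end of that gene. The other transmembrane collagens had less: Col13a1 1 region of all 4 antibodies, of mean fold 5.86 at 1.42 kb outside the gene, Col25a1, the longest collagen gene at 420 kb, 2 such regions of 4.19 each, and Col17a1, a hemidesmosome gene of stratified epithelium, a lone Millipore07-601 peak of 4.86.

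Type VI collagens form beaded filaments around cells and near basement membranes, and their genes differed widely. Col6a6 had 11 regions, 5 of them with all 4 antibodies, and the best lay 63.8 kb inside the gene (chromosome 9, 105763978 to 105764715) with folds of 17.7, 30.4, 17.5 and 26.3. The neighbours Col6a5 and Col6a4 had 2 regions of up to 3 antibodies and none. Col6a1 had its 4-antibody region 9.14 kb upstream of its start (chromosome 10, 76735049 to 76735335) at 5.35, 8.46, 5.68 and 9.91, and Col6a3 had 2 inside it with mean folds of 4.91 and 6.28. Col6a2 had 3 regions, the best at a mean fold of 5.04 with 3 antibodies. The 10 kb limit decided 3 genes narrowly: the 4-antibody region of Col6a1 lay just inside it, and the nearest 4-antibody regions of Col6a2 and Col2a1 just outside, at 10.5 and 11.5 kb.

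**Figure D5:**
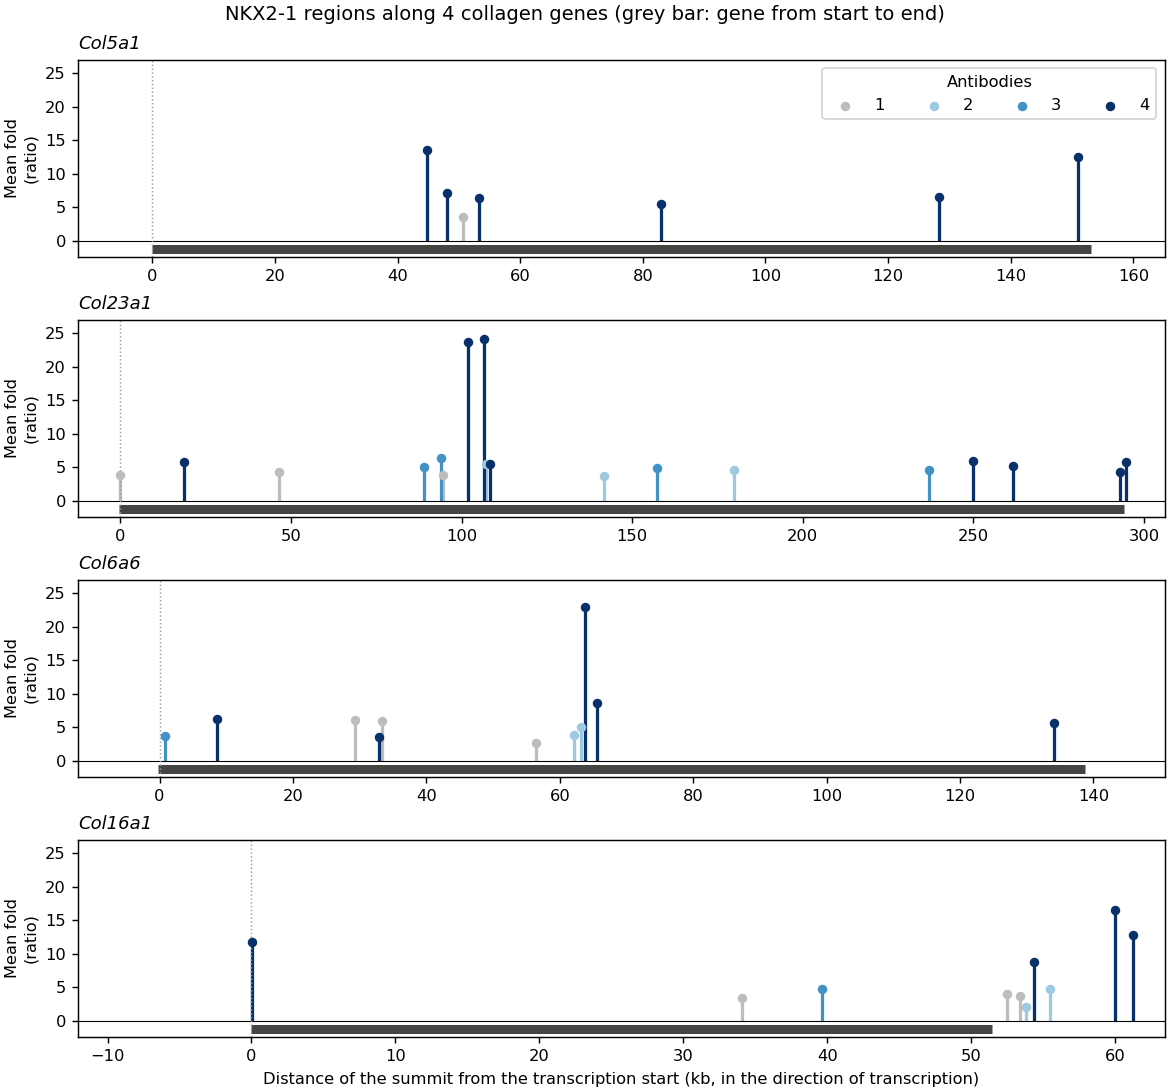
Regions along Col5a1, Col23a1, Col6a6 and Col16a1: each stem stands at the summit, measured in kb from the transcription start in the direction of transcription, its height is the mean fold over the libraries with a peak, and its colour gives the number of antibodies. In Col5a1, Col23a1 and Col6a6 the highest stems stand over 40 kb from the start, while Col16a1 has a 4-antibody region on its start.

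Collagens of the FACIT group, which sit on the surface of fibrils, had a 4-antibody region in 4 of 9 genes (44.4%), against 60.4% of all genes. Col16a1 had 4 such regions, of which the 2 of highest mean fold lay in its neighbour Pef1, a gene for a calcium-binding protein. The stronger of these (chromosome 4, 130107337 to 130108279) had folds of 13.8, 18.8, 14.6 and 19.2 and is nearer Pef1. Another, 2.93 kb beyond the distal end of Col16a1, had 7.05, 11.8, 6.25 and 10.2, and the fourth covered the start of Col16a1. Col9a1, a gene of cartilage fibril surfaces, had 1 region of all 4 antibodies, 8.05 kb from a start (chromosome 1, 24186967 to 24187336) with 11.1, 17.3, 8.93 and 13.8. Col12a1, whose product coats type I fibrils, had 3 of all 4 antibodies among 8, and the best (chromosome 9, 79718500 to 79718958) lay inside it, 2.42 kb from a gene end, with 10.5, 11.4, 6.90 and 10.3. Col22a1 had 1 of all 4 antibodies, of mean fold 5.69, in 355 kb, Col9a3, Col19a1 and Col20a1 had peaks of single antibodies only, at folds of up to 4.10, and Col9a2 and Col14a1 had no peak.

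Basement membrane and network collagens mostly had regions of modest height. Col18a1, whose product yields the fragment endostatin, had 9 regions inside the gene, 5 of them with all 4 antibodies, and the best (chromosome 10, 77130495 to 77130927) had folds of 6.33, 9.92, 4.66 and 8.46. Col15a1, the related gene, had 2 of all 4 antibodies among 6, with mean folds of 4.34 and 5.00. Near Col7a1, which makes the anchoring fibrils below stratified epithelia, 2 strong 4-antibody regions stood 6.78 kb or more beyond the gene, inside Pfkfb4, a gene of glycolytic control. The first (chromosome 9, 108991439 to 108992139) had 17.9, 24.3, 16.8 and 22.2, and the second (108992446 to 108993203) had 17.1, 26.0, 14.8 and 22.4. The short-chain collagen genes Col8a1 and Col8a2 had 1 and 2 regions of all 4 antibodies, of 6 and 3 in all. The 4-antibody region inside Col8a1 (chromosome 16, 57642451 to 57642728) had 5.77, 10.7, 4.48 and 6.53, and the better one of Col8a2 (chromosome 4, 126321453 to 126322097) had 11.4, 8.59, 10.3 and 18.6 and lay at the start of its neighbour Adprhl2. Col10a1, of growth plate cartilage, had no peak, and Col26a1 and Col28a1 had 2 and 1 regions of all 4 antibodies, of mean fold 4.44 to 6.50.

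Few collagen promoters held a summit. A promoter window of 250 bases before to 50 bases after the transcription start was at hand in RefSeq for 30 of the 38 genes. A summit of a 4-antibody region fell in it for 1 gene, Col16a1 (1 of 30, 3.33%), against 29% of all genes with a window. A summit of any antibody fell in it for 6 of the 30, against 44.6% of all genes. Besides Col16a1 these were Col7a1 with 3 antibodies, Col6a1 with 2, and Col6a2, Col23a1 and Col27a1 with 1 each, so that 1 of 8 fibrillar genes with a window, Col27a1, was among them. No window was at hand for Col1a1, Col2a1, Col5a2, Col9a3, Col12a1, Col14a1, Col22a1 and Col26a1.

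The 3 collagen promoters with summits of 2 or more antibodies, and the neighbouring Adprhl2 promoter that carries the region near Col8a2, are shown for comparison, 5′ to 3′ along the gene, from RefSeq in GRCm38.p6 (mm10). Capitals run from the first to the last summit of the antibodies. The windows are chr4:130047590-130047889 on the plus strand for Col16a1, chr9:108953336-108953635 on the plus strand for Col7a1, chr10:76725995-76726294 on the minus strand for Col6a1 and chr4:126321654-126321953 on the minus strand for Adprhl2.
Col16a1: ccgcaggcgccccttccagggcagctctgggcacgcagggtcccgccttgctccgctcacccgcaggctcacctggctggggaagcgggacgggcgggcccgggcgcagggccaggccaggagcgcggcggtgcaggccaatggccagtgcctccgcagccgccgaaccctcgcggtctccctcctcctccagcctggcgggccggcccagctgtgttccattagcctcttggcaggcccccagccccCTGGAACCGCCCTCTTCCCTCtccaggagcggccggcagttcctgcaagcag
Col7a1: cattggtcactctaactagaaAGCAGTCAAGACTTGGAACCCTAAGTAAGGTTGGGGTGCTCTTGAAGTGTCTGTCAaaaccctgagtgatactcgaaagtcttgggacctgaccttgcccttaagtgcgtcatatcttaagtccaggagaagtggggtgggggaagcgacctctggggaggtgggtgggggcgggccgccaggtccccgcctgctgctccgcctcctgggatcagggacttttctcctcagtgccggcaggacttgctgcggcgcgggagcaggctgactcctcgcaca
Col6a1: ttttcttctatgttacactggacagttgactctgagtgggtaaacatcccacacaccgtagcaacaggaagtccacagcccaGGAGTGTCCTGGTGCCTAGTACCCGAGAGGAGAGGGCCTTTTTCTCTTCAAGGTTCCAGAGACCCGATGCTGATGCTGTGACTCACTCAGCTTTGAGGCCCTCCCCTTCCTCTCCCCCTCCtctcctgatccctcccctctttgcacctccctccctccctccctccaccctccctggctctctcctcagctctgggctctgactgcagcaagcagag
Adprhl2: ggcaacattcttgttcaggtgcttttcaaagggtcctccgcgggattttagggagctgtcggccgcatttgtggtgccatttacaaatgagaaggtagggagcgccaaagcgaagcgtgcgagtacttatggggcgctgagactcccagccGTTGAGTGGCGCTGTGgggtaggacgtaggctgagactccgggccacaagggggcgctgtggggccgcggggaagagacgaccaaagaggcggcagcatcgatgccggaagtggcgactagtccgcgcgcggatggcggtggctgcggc
In Col16a1 the 4 summits lay within 21 bases, from position -2 to 18 relative to the start, with folds of 10.1, 9.10, 12.2 and 15.9 in a window of 74.3% G and C. In Adprhl2 the 4 summits spanned 16 bases, from position -99 to -84. In Col7a1 the 3 summits, of Millipore07-601, Abcam76013 and Abcam133638, spanned 56 bases, from position -229 to -174, with folds of 5.76, 3.92 and 5.19. In Col6a1 the 2 summits spanned 121 bases, from position -168 to -48, with folds of 4.44 for Millipore07-601 and 3.66 for Abcam133638, so the summits lay close together in Col16a1 and farther apart in Col6a1.

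These windows were searched on both strands for CTCAAG and for CACTNNAG, short forms of the sequence that NKX2-1 is known to favour; the 2 motifs can overlap. Of the 4 printed promoters, Col7a1 held a match, CTTAAGTG from position -130 to -123, which is the second motif on the opposite strand and lies outside the stretch of summits. The others held none. Over all 31365 autosomal promoter windows 15.7% held the first motif and 15.8% the second, and over the 5926 windows with a summit of a 4-antibody region 17.9% and 17.1%. Over the 33 collagen windows, from 30 genes, 7 held the first (21.2%) and 8 the second (24.2%). A match is a description of letters and not a bound site.

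Millipore07-601 and Abcam133638 gave the higher folds near collagen genes, as over the whole genome. Over the 55 collagen regions the median folds were 5.15, 7.34, 5.68 and 7.30. Millipore07-601 and Abcam133638 were both above the other antibodies in 36 of the 55 (65.5%), against 77.7% of all 4-antibody regions. This order did not hold in 19 regions, among them the start of Col16a1, the region at Adprhl2 and the best regions of Col11a1, Col1a1, Col5a3 and Col25a1. Summits of the 4 libraries lay within 100 bp in 52 of the 55 regions. Of the 18 regions with 3 antibodies, 8 lacked Abcam76013, 8 lacked Abcam133737 and 2 lacked Millipore07-601, and 36 of the 41 regions with 1 antibody came from Millipore07-601 or Abcam133638, whose lists are longer. For 34 to 36 of the 55 or 56 peaks of a library in these regions, the local background was the constant genome-wide value (tolerance 0.02 tags). The fold there is a pileup over a constant. These were 60.7% to 65.5% of the peaks, close to the 60.0% to 63.3% of the whole lists.

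Genes that make, cross-link, bind or break down collagen were set beside the collagen genes, as lists of 51 genes in all. Of these 36 (70.6%) had a 4-antibody region, against 60.4% of all genes, and the share varied by role. Gene length, with which the share of all genes rises, was not matched here. Some best regions lay inside another gene, such as that of Colgalt1 in Niban3. Genes that modify prolines and lysines of the chains numbered 13 of 14, led by P4ha1, the catalytic subunit of prolyl hydroxylase, with folds of 22.2, 35.7, 21.5 and 28.0 inside the gene. Folding and export genes numbered 7 of 8, led by Serpinh1, the collagen chaperone, at 19.8, 20.1, 17.9 and 25.4. Receptors numbered 8 of 10, led by Mrc2, an endocytic collagen receptor, at 29.2, 45.7, 33.3 and 39.0, at 1.28 kb from the gene. The 3 leading regions were at 17.9 or above in every library.

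The remaining roles had lower shares, to be set against 60.4% of all genes, and they rest on 5 to 8 genes each. Propeptide-cleaving genes numbered 4 of 8 (50%), led by Bmp1. The best region of Bmp1 (mean fold 34.7) lay inside its neighbour Lgi3 and is also assigned to Sftpc. Cross-linking genes numbered 3 of 5 (60%), close to all genes, led by Loxl3 at a mean fold of 14.5, in a region inside Aup1 and Htra2. Genes of collagen breakdown numbered 1 of 6 (16.7%), which was Mmp14 at a mean fold of 6.38. That region lay outside genes, and the nearest gene end was that of Mrpl52, at 0.125 kb.

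The type IV genes Col4a1 to Col4a4, basement membrane collagens, had a higher density as a group than the 38 and, except for Col4a1, higher best folds. All 4 had 4-antibody regions, against 60.4% of all genes. The 23 distinct ones stood at 4.07 per 100 kb of window, against 1.07 for the 38 and 2.03 for all genes. Their best mean folds were 13.7 for Col4a1, 35.4 for Col4a2 and 45.2 in the region that Col4a3 and Col4a4 share, while the best of the 38 reached 23.7 in Col23a1 by the same choice. Of the 38, only Col16a1 at 5.60 and Col8a2 at 4.21 regions per 100 kb exceeded the type IV density. Only Col23a1, Col6a6 (23.0), Col7a1 (20.3) and Col16a1 (16.6) had a higher best mean fold than Col4a1. The type IV genes form 2 adjacent pairs, so they are not independent, and their difference from the 38 was not tested.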

How the data were processed

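ChIP-seq peak lists of 4 NKX2-1 antibody libraries were used. MACS 2.1.2 was run by the authors on each library by itself against 1 common input, at a q-value cutoff of 0.05 with 1 tag kept per position, per the file headers. Per the submitters' processing notes the build was mm10; aligner versions are not given in the sources used here. Deposited for each peak are the signal (pileup in tags), a ratio (fold enrichment against the local background) and −log10 p-values and q-values, all from the authors' caller. Fold serves only to describe and rank peaks within a list and to set the libraries side by side at the same region.

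Peaks overlapping by at least 1 bp were merged with Python 3.11.15 and pandas 2.3.3, and genes came from RefSeq GRCm38.p6. Merging and assignment were tested on simulated peaks. Region counts per 100 kb use the gene with 10 kb on each side. The members and lists, and the rule for named genes (every fibrillar gene with a 4-antibody region, the 10 other collagens whose best region ranks highest, regions on a member's own start, and the leading gene of each pathway list), were chosen with earlier results of these data known. Other genes were named after their values were seen. Alternatives were thresholds, windows, overlap rules, nearest gene and leaving out each antibody.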

Additional observations from a re-analysis of the deposited data

How the results depend on the processing

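The 9 counts and medians were recomputed under 13 settings, and 93 of 117 values stayed within 1.5 times of the count or within 1 SD over the 4 antibodies of the median. With folds of at least 5, collagen genes with a 4-antibody region fell from 23 to 12 (3 fibrillar, 9 other), or 31.6% against 44.7% of all genes, their regions to 24 (6 and 18), and the median best fold rose to 11.7 for fibrillar and 12.8 for other genes. With the 10000 peaks of highest fold of each list, 7 genes (2 and 5) kept one, or 18.4% against 23.1% of all genes, with 11 regions (3 and 8), 10 genes with any peak and medians of 12.6 and 20.3. With a −log10 q of at least 5 the medians were 10.1 for fibrillar and 7.35 for other genes. At that limit 36.4% of fibrillar and 59.3% of other genes had a 4-antibody region. The fibrillar median was 8.55 both with a 2 kb window and inside the gene, against 6.61 and 6.74 for other genes. With a 50 kb window there were 116 regions (25 and 91), and the medians were 10.0 for fibrillar and 7.96 for other genes. In that window 89.5% of collagens against 76.4% of all genes had a 4-antibody region. With this q limit, and with the 2 kb, 50 kb and inside-gene windows, the fibrillar median was thus the higher one. In the main setting it was the lower, at 6.93 against 7.34. Assigning regions to the nearest gene left 55.3% of the collagens with one. The share of all genes was not computed under that rule, so 55.3% has no background to stand against. Leaving out 1 antibody gave 60.5% to 68.4%, against 60.6% to 63.3% of all genes. Collagens stood at 60.5% both with a reciprocal overlap of 50% and with summits within 100 bp, against 54.1% and 55.5% of all genes. Inside the gene the shares were 47.4% against 40.5%. With a 2 kb window they were 50% against 51.6%, and with a −log10 q of at least 5 they were 52.6% against 55.7%. Whether collagens stood above or below all genes thus depended on the setting. The share of fibrillar genes was below that of other collagens in each setting except without Abcam76013, where it was 63.6% against 63.0%. No paired analysis was possible because each antibody had 1 library.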

Other observations

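Some neighbouring collagen genes differed in their number of regions and others did not. On chromosome 9 Col6a6, Col6a5 and Col6a4 follow each other with lengths of 139, 106 and 107 kb, and they held 11, 2 and 0 regions of any antibody. On chromosome 1 Col3a1 and Col5a2 lie next to each other, with 0 regions and 2 regions of 1 or 2 antibodies, and neither has a 4-antibody region. On chromosome 10 Col6a1 and Col6a2 held 2 and 3 regions, of which 1 and 0 had all 4 antibodies. Col9a1 and Col19a1, also adjacent on chromosome 1, share a single Millipore07-601 peak of fold 3.81 that lies inside Col9a1, and Col19a1 has no other within 10 kb of its 330 kb. These genes were singled out after their values were seen.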
